A study of Homo sapiens with 4 samples.

Results

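The interferon-stimulated genes make the proteins with which a cell meets a virus, and the antigen processing genes make the machinery that shows peptides to T cells. Their messenger RNAs were read in LSTGFBR2 cells, an epithelial line from colon cancer in which doxycycline switches on a construct of the type II TGF-β receptor. Of the 4 arrays, 2 came from cells given 5 ng/ml TGF-β1, a growth-restraining cytokine of epithelia, for 16 hours, and 2 from untreated cells, with replicate numbers 1 and 2 in each group. The labels describe receptor induction with doxycycline from seeding, but do not say which arrays came from induced cells. TGFBR2 itself read 14.70 and 14.92 on the TGF-β1 arrays, against 9.44 and 9.55 on the untreated arrays, so the construct's level and the cytokine cannot be told apart. The genes were a fixed list of 34 symbols, chosen by name, and chosen with it already known that the replicate numbers differed in this group. Of the 34, 33 were read by a probe set (a group of short probes for a transcript) that the platform annotation pairs with a single gene, among 19775 genes in all. STAT2 was not analysed here. Of the 33 genes, 15 had several probe sets, of which the brightest on average stood for the gene. All levels are log2 values from RMA (robust multi-array average), in which a difference of 1 is a 2-fold difference, and levels of different genes are not compared, since probe sets differ in brightness.

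Type I interferons bind the receptor IFNAR1 and IFNAR2, which signals through the kinases JAK1 and TYK2. STAT2 and IRF9 are parts of the complex ISGF3, which then binds the interferon-stimulated response element (ISRE) in the promoters of its target genes. Promoters of genes that respond to interferon gamma often hold the gamma-activated site (GAS). Antigen processing links to the same pathway: the immunoproteasome subunits PSMB8 and PSMB9 cut peptides, the transporter subunit TAP1 helps carry them into the endoplasmic reticulum, and B2M is the light chain of the class I molecule that presents them. Intestinal epithelium responds to interferons and makes many of these proteins. TGF-β signals instead through SMAD proteins.

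RefSeq promoter windows (GRCh38.p14, 250 bases before to 50 bases after the annotated gene start) were found for 27 of the 33 genes. No window was listed for IFIT2, IFITM2, MX2, OAS2, OASL and IRF7. The ISRE core was searched as GAAANNGAAA and, on the other strand, TTTCNNTTTC. It was found in 20 of the 27 genes (74.1%), against 1195 of all 27305 genes with a window (4.38%). The GAS letters TTCNNNGAA, which read the same on both strands, were found in 10 of the 27 genes (37%), against 2560 of all genes (9.38%). The SMAD palindrome GTCTAGAC was found in 0 of the 27 genes, against 70 of all genes (0.256%). At that share 27 genes would seldom hold a match, so the 0 does not bear on SMAD sites. These are matches of letters and not shown to be bound.

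The windows of 5 genes that the results turn on are shown 5′ to 3′ on the gene's own strand. IFI27, IFI6 and IFI44 differed most between replicate numbers, and SAMD9 and IRF9 were called with TGF-β1 only when the replicate number was in the model. Capitals mark ISRE core matches in the first 4 windows and the GAS match in that of IRF9. IFI27 (chr14:94110486-94110785, plus strand) has 2 ISRE matches on opposite strands, starting 108 and 95 bases before the gene start, and a GAS match starting 101 bases before it overlaps both. IFI6 (chr1:27672143-27672442, minus strand) has 3 matches, starting 156, 115 and 93 bases before the start. IFI44 (chr1:78649539-78649838, plus strand) has 1 match, on the opposite strand, starting 18 bases before the start. IFI27 and IFI44 each have a second window, from another annotated start. There the same ISRE matches start 187 and 174 bases before the start for IFI27, and 60 bases before it for IFI44. SAMD9 (chr7:93117930-93118229, minus strand) has 1 match, starting 136 bases before the start. IRF9 (chr14:24161015-24161314, plus strand) has no ISRE core match in this window and a GAS match starting 63 bases before the start.
IFI27: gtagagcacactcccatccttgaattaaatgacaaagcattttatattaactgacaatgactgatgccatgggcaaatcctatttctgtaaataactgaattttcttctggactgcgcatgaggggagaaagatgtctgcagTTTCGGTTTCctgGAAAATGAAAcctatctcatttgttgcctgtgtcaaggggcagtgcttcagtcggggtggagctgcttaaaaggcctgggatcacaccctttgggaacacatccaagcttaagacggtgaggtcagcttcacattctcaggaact
IFI6: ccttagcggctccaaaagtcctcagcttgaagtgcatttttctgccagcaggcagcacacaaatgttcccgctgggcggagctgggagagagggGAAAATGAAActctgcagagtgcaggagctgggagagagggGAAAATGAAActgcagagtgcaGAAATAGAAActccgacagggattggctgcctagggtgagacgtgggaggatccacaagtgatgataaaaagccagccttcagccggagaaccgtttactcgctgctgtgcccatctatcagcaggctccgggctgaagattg
IFI44: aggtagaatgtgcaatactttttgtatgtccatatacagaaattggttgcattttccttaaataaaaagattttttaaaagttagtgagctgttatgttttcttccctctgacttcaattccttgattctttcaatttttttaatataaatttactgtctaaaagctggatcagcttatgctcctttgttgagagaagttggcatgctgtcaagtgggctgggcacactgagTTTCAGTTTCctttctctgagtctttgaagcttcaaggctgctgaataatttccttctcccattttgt
SAMD9: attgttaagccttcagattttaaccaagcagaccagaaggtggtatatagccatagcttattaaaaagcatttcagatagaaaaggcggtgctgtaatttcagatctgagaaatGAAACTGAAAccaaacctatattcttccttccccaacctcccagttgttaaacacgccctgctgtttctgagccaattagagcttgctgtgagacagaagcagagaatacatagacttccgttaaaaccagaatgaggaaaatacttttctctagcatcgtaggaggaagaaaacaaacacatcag
IRF9: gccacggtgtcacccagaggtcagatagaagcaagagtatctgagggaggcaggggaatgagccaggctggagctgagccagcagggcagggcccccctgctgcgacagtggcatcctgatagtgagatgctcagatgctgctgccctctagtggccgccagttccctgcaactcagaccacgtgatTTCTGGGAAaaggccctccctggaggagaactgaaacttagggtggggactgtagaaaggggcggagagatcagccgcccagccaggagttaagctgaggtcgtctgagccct

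The level of the genes on these arrays was examined first. Of the 33, 28 were above the array's own median on all 4 arrays, and 5 (IFI44L, OAS2, HERC5, RSAD2 and XAF1) were below it on all 4. RMA gives no detection call, so the 5 genes are not called absent. Genes whose mean lay under the array medians are called dim here, and changes of dim probe sets are compressed. ISG15, a ubiquitin-like protein that is joined to other proteins after interferon, read 12.59 and 12.26 on the TGF-β1 arrays and 12.56 and 12.12 on the untreated arrays. B2M read 13.60 and 13.79 on the TGF-β1 arrays and 13.66 and 13.68 on the untreated arrays. IFITM1, IFITM2 and IFITM3, membrane proteins that block virus entry, come from related genes whose probe sets can share signal. Their log2 differences were -0.09, -0.07 and -0.06. All 14 markers of colon epithelium lay above the array medians, with mean levels from 7.75 to 15.05. Of the 10 leukocyte markers measured, 8 were dim, and PTPRC, the leukocyte surface protein CD45, read 4.56 and 4.58 on the TGF-β1 arrays and 4.50 and 4.75 on the untreated arrays.

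**Figure D1:**
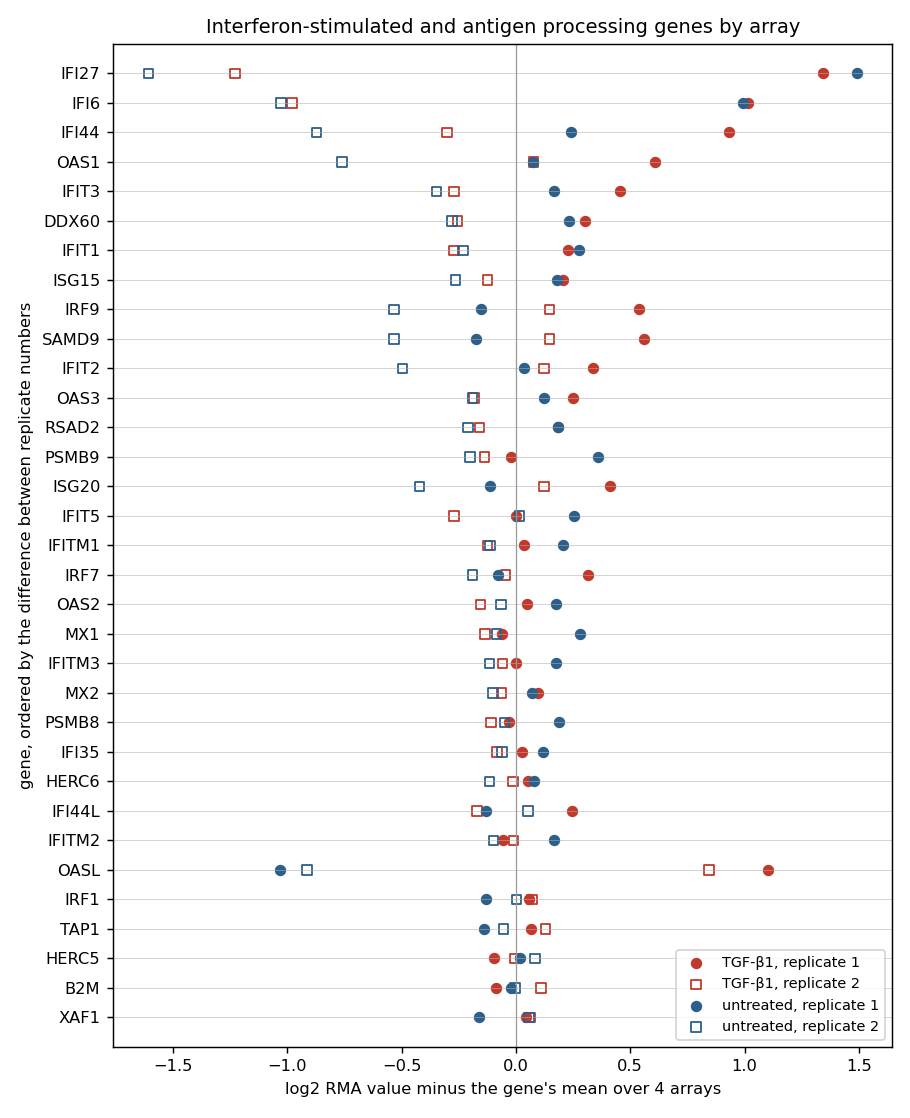
Log2 RMA value of each of the 33 genes on each of the 4 arrays, minus the gene's mean over the arrays, with genes ordered by the difference between replicate numbers. Red marks are TGF-β1 arrays, blue marks untreated arrays, filled circles replicate 1 and open squares replicate 2. OASL stands higher on both TGF-β1 arrays, and IFI27 and IFI6 stand higher on both replicate 1 arrays.

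With TGF-β1, 1 of the 33 genes rose and none fell at a limma adjusted p under 0.05, and 32 did not pass. Over all genes, 1.87% were called higher and 1.47% lower in the same fit, so the count of 1 lies near the background. At an unadjusted p under 0.05, 4 of the 33 were higher and 0 lower, against 8.17% and 8.54% of all genes. The median log2 difference of the 33 genes was 0.046, against -0.004 over all genes, and 26 of the 33 differed by less than 0.3. The direction of that median depended on single arrays. It was -0.083 without TGF-β1 replicate 1 and -0.077 without untreated replicate 2. It was 0.199 when TGF-β1 replicate 2 was left out, and 0.151 when untreated replicate 1 was.

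The gene that rose was OASL, a relative of the OAS enzymes that lacks their catalytic activity and enhances RNA sensing by RIG-I. OASL read 9.82 and 9.56 on the TGF-β1 arrays, against 7.68 and 7.80 on the untreated arrays. The groups did not overlap, and the gap between them was many times the distance between replicates. The log2 difference was 1.95 ± 0.13 (limma SE, n = 2 each), a 3.85-fold rise with an adjusted p of 0.00261. The second OASL probe set read 9.28 and 9.02 on the TGF-β1 arrays, against 7.41 and 7.01 on the untreated arrays, which gave a log2 difference of 1.95. Within replicate number 1 the difference was 2.14, and within number 2 it was 1.76. OASL stayed past the threshold with each array left out in turn, with log2 differences from 1.82 to 2.08 and adjusted p from 0.024 to 0.0436.

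Because arrays of the same replicate number shared part of their deviation, the groups were also compared within each number. With the replicate number as a block, 3 of the 33 genes were higher at an adjusted p under 0.05 (OASL, SAMD9 and IRF9) and none lower, against 1.65% of all genes higher and 1.18% lower. SAMD9, an antiviral protein that halts translation in infected cells, read 7.70 and 7.29 on the TGF-β1 arrays, against 6.97 and 6.61 on the untreated arrays. Its log2 difference was 0.71 ± 0.18, with an adjusted p of 0.111 without the block and 0.0422 with it. The second SAMD9 probe set gave a log2 difference of 1.09. IRF9, the DNA-binding part of ISGF3, read 9.65 and 9.25 on the TGF-β1 arrays, against 8.95 and 8.57 on the untreated arrays. Its log2 difference was 0.69 ± 0.18, with an adjusted p of 0.120 without the block and 0.0428 with it. For both genes each number gave nearly the same difference, 0.74 and 0.68 for SAMD9 and 0.69 and 0.68 for IRF9. The labels do not say what arrays of one number share, so the block rests on the number alone.

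The other transcription factors among the 33 were, by the probe set used, higher on both TGF-β1 arrays but did not pass either fit. IRF7, which amplifies the production of type I interferon, read 10.86 and 10.50 on the TGF-β1 arrays, against 10.46 and 10.35 on the untreated arrays (log2 difference 0.27 ± 0.14, adjusted p = 0.446). IRF1, a factor induced by interferon gamma that acts on antigen presentation genes, read 7.77 and 7.79 on the TGF-β1 arrays, against 7.59 and 7.72 on the untreated arrays (0.13 ± 0.10, adjusted p = 0.651). The lowest TGF-β1 value of each lay less than 0.1 above the highest untreated value. The second IRF1 probe set was not higher. It read 7.36 and 7.39 on the TGF-β1 arrays and 7.36 and 7.44 on the untreated arrays (log2 difference -0.025).

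Among the 26 effectors, the median log2 difference with TGF-β1 was 0.04, and 4 besides OASL and SAMD9 had a difference of more than 0.3 without passing either fit. OAS1, an enzyme that makes the 2′-5′ oligoadenylates that activate RNase L, read 11.17 and 10.63 on the TGF-β1 arrays, against 10.63 and 9.80 on the untreated arrays. TGF-β1 replicate 2 and untreated replicate 1 lay within 0.01 of each other, and the log2 difference was 0.69 ± 0.30 (adjusted p = 0.329, and 0.0671 with the block). The second OAS1 probe set read 10.31 and 9.52 on the TGF-β1 arrays, against 9.80 and 8.79 on the untreated arrays, so there the groups overlapped (log2 difference 0.62). IFI44, a cytoplasmic antiviral protein, read 8.69 and 7.46 on the TGF-β1 arrays, against 8.0 and 6.89 on the untreated arrays, so the groups overlapped. Its log2 difference was 0.63 ± 0.49 (adjusted p = 0.630, and 0.0529 with the block). ISG20, an exonuclease that degrades viral RNA, read 9.69 and 9.40 on the TGF-β1 arrays, against 9.16 and 8.86 on the untreated arrays, with no overlap. Its log2 difference was 0.54 ± 0.15 (adjusted p = 0.143, and 0.0621 with the block).

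The IFIT proteins, which bind viral RNA and restrain its translation, did not share a direction. IFIT2 read 7.92 and 7.71 on the TGF-β1 arrays, against 7.62 and 7.09 on the untreated arrays (log2 difference 0.46 ± 0.19, adjusted p = 0.303). IFIT5 read 10.14 and 9.87 on the TGF-β1 arrays, against 10.39 and 10.15 on the untreated arrays (-0.27 ± 0.14, adjusted p = 0.431). IFIT5 was the lowest of the 33 differences, and its groups were apart by less than 0.02. IFIT3 read 8.26 and 7.54 on the TGF-β1 arrays and 7.98 and 7.46 on the untreated arrays, and IFIT1 read 9.04 and 8.54 on the TGF-β1 arrays and 9.09 and 8.58 on the untreated arrays. In both genes the groups overlapped, and the replicate numbers lay further apart than the groups. The second IFIT3 probe set gave a TGF-β1 difference of -0.056, against 0.18 for the one used. The effectors not given by array here (IFI35, IFI44L, MX1, MX2, OAS2, OAS3, HERC5, HERC6, RSAD2 and XAF1) had log2 differences between -0.19 (MX1) and 0.11 (XAF1), and none passed either fit.

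The 4 antigen processing genes had a median log2 difference of -0.06, and none passed either fit. PSMB8 read 10.47 and 10.39 on the TGF-β1 arrays and 10.69 and 10.45 on the untreated arrays (log2 difference -0.14 ± 0.12, adjusted p = 0.678). PSMB9 read 8.52 and 8.40 on the TGF-β1 arrays and 8.90 and 8.34 on the untreated arrays (-0.16 ± 0.19, adjusted p = 0.789). Both immunoproteasome subunits overlapped between the groups. TAP1 read 9.58 and 9.64 on the TGF-β1 arrays, against 9.37 and 9.46 on the untreated arrays, which did not overlap (0.19 ± 0.10, adjusted p = 0.425). The 95% interval of the log2 difference ran from -0.43 to 0.15 for PSMB8, from -0.62 to 0.30 for PSMB9, from -0.05 to 0.44 for TAP1 and from -0.25 to 0.30 for B2M, so changes of that size were not detectable with 2 arrays a group.

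Counted by overlap in the probe set used, 9 of the 33 genes had both TGF-β1 arrays above both untreated arrays, against 21.4% of all genes. They were ISG20, IFIT2, OAS1, OASL, SAMD9, IRF1, IRF7, IRF9 and TAP1, and the second probe sets of OAS1 and IRF1 overlapped. IFIT5 and HERC5, a ligase that attaches ISG15, were the 2 genes with both TGF-β1 arrays below both untreated arrays, against 23% of all genes. The other 22 genes overlapped. Within the replicate numbers, 17 of the 33 genes were higher with TGF-β1 in both numbers (30.5% of all genes), 8 were lower in both (32.2%) and 8 differed in direction or were level in one number.

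**Figure D2:**
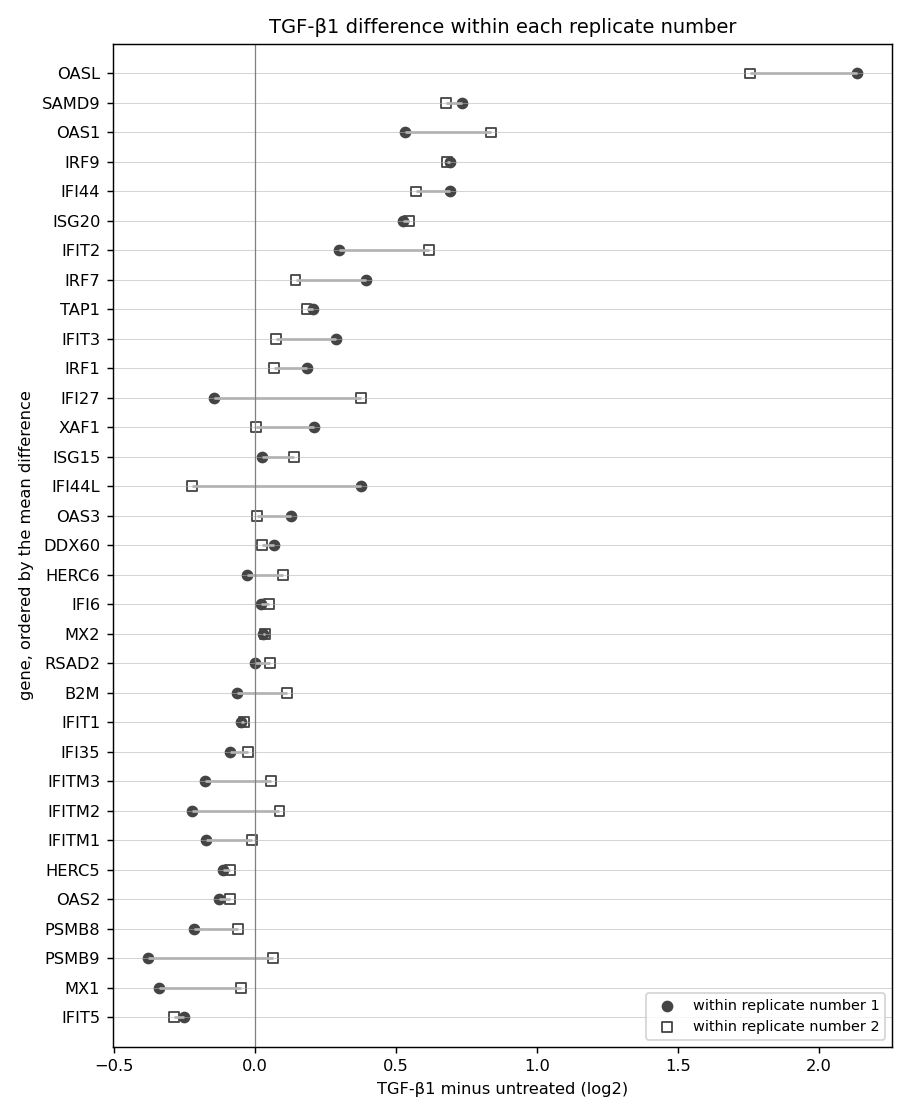
Log2 difference of TGF-β1 minus untreated for each of the 33 genes within replicate number 1 (filled circles) and within replicate number 2 (open squares), joined by a line. OASL lies at 2.14 and 1.76, and SAMD9 and IRF9 lie near 0.7 in both numbers, while most genes lie near 0.

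The replicate numbers separated these genes more widely than the treatment did. A replicate difference in this group was already known when the genes were chosen. The counts set beside all genes therefore describe it and are no test of it. Of the 33 genes, 25 were higher on the replicate 1 array than on the replicate 2 array in both groups, against 27.2% of all genes. The reverse held for 5 genes (HERC5, XAF1, IRF1, TAP1 and B2M), against 30.9% of all genes, and 3 were mixed (IFI44L, IFITM2 and OASL). For 18 genes both replicate 1 arrays lay above both replicate 2 arrays (14% of all genes). The same held for 10 of the 16 other proteasome subunits and activators described below, with a median replicate difference of 0.11. The median log2 difference of replicate 1 minus replicate 2 was 0.24 for the 33 genes and -0.01 over all genes. It was 0.26 on the TGF-β1 arrays alone and 0.31 on the untreated arrays alone.

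IFI27, IFI6 and IFI44 had at least 2-fold higher values on replicate 1 in both groups, as did 0.111% of all genes (22 of 19775). IFI27, a small mitochondrial protein widely used as a marker of type I interferon, read 12.57 on replicate 1 and 9.99 on replicate 2 of the TGF-β1 arrays, and 12.72 and 9.62 in the same order on the untreated arrays. The replicate difference of IFI27 was 2.84 ± 0.15, or 7.15-fold, the largest of all 19775 genes. IFI6, a membrane protein that limits flavivirus replication, read 11.55 on replicate 1 and 9.56 on replicate 2 of the TGF-β1 arrays, and 11.53 and 9.51 on the untreated arrays. The replicate difference of IFI6 was 2.01 ± 0.08, or 4.03-fold. That of IFI44 was 1.17 ± 0.09, or 2.26-fold, with 1.23 on the TGF-β1 arrays and 1.11 on the untreated arrays. The second IFI44 probe set gave 0.57, in the same direction.

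No gene of the table passed an adjusted p under 0.05 for the replicate number (0% of 19775), a limma fit with 4.07 degrees of freedom. IFI6 had an adjusted p of 0.065, IFI27 of 0.112 and IFI44 of 0.169. At an unadjusted p under 0.05, 16 of the 33 genes were higher on replicate 1, against 5.93% of all genes, and none was lower, against 5.45%. Since the genes were chosen with this difference known, these counts are description and not a test of the group. IFI6 passed under 5 other settings, with adjusted p of 0.0490 over genes with a mean level of 5 or more and of 0.000579 with each array centred on its median. IFI27 passed under 3 of them and IFI44 under 2. With every probe set tested separately none of these 3 genes passed, with limma adjusted p of 0.201 for IFI6, 0.201 for IFI27 and 0.286 for IFI44.

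**Figure D3:**
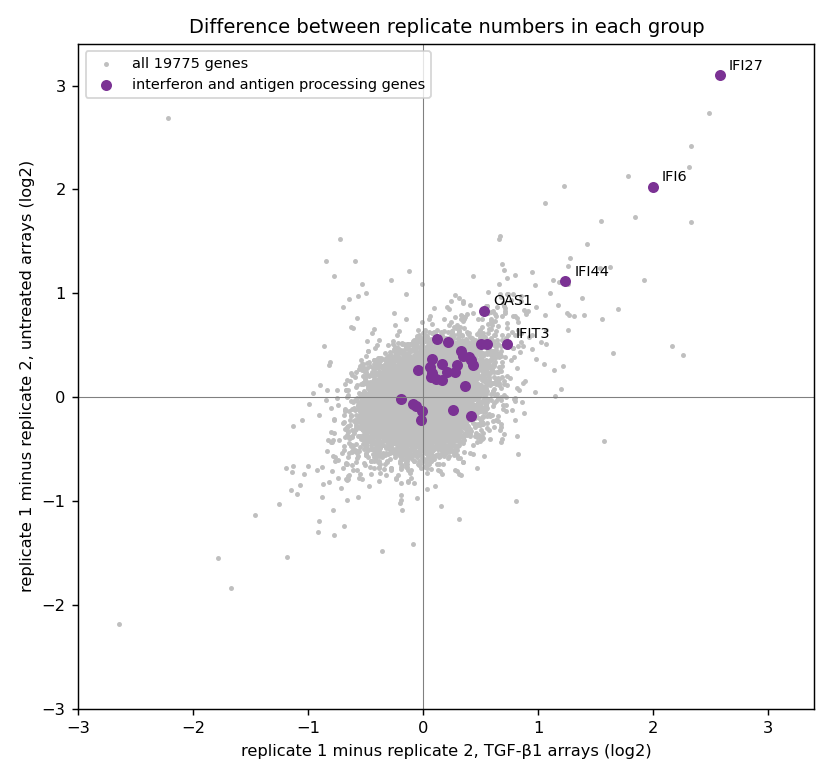
Log2 difference of replicate 1 minus replicate 2 on the TGF-β1 arrays and on the untreated arrays, for the 33 genes (purple) and all genes (grey). IFI27, IFI6 and IFI44 lie past a 2-fold difference on both axes, and 25 of the 33 genes lie above 0 on both.

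The spread in the fit without the block includes this replicate difference, and its errors for these genes were wide. The TGF-β1 difference of IFI27 was 0.12 ± 1.16 and that of IFI6 was 0.04 ± 0.82. Leaving out single arrays moved IFI27 between -1.43 (without untreated replicate 2) and 1.67 (without untreated replicate 1), and IFI6 between -0.98 and 1.05 on leaving out the same arrays. Both genes were also below 0 without TGF-β1 replicate 1 and above 0 without TGF-β1 replicate 2. Within replicate numbers, IFI27 differed by -0.15 in number 1 and 0.38 in number 2. IFI6 differed by 0.02 and 0.05.

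Smaller replicate differences ran through the other effectors. That of OAS1 was 0.68 ± 0.11, of IFIT3 0.62 ± 0.10 and of IFIT1 0.50 ± 0.08. DDX60, a helicase that aids RIG-I sensing, read 7.74 on replicate 1 and 7.19 on replicate 2 of the TGF-β1 arrays, and 7.67 and 7.16 on the untreated arrays, a replicate difference of 0.53 ± 0.08. For IFIT3, IFIT1 and DDX60 both replicate 1 arrays lay above both replicate 2 arrays, while for OAS1 the TGF-β1 replicate 2 value lay just above the untreated replicate 1 value. Of the 26 effectors, 21 were higher on replicate 1 in both groups, with a median of 0.28. Of the 4 antigen processing genes, PSMB8 and PSMB9 were, with a median of 0.04 over the 4. The replicate difference of B2M was -0.11 and that of TAP1 was -0.08.

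Array levels and cell type markers were set beside the replicate difference. The array medians, which quantile normalization brings together, lay between 6.57 and 6.61. The leukocyte markers averaged 6.16 on TGF-β1 replicate 1, 6.07 on TGF-β1 replicate 2, 6.15 on untreated replicate 1 and 6.13 on untreated replicate 2, with 8 of 10 dim. Their median replicate difference was 0.05, with 3 higher and 2 lower on replicate 1 in both groups. The largest of them was that of LYZ, a dim gene here (0.59 ± 0.09). The 8 endothelial markers had a median replicate difference of -0.08 and the 10 fibroblast markers of -0.03, with 6 and 4 of them dim. Of the 10 fibroblast markers, 3 were higher and 4 lower on replicate 1 in both groups. Of the 14 colon epithelium markers, 8 were higher on replicate 1 in both groups, with a median of 0.13, and 4 were lower in both (CDH1, VIL1, CDX1 and GPA33, with differences of -0.26, -0.18, -0.40 and -0.35). The largest replicate differences of the colon epithelium and fibroblast lists were those of KRT20 and COL3A1. KRT20, a keratin of differentiated colon epithelium, read 8.16 on replicate 1 and 6.74 on replicate 2 of the TGF-β1 arrays, and 8.78 and 7.30 on the untreated arrays. COL3A1, a collagen of fibroblasts, read 7.38 on replicate 1 and 5.83 on replicate 2 of the TGF-β1 arrays, and 9.18 and 7.48 on the untreated arrays. KRT20, COL3A1 and LYZ were named after their values were seen, and their part in the replicate difference was not tested. With TGF-β1, CDX2 was called lower, 1 of the 14 colon epithelium markers (1.47% of all genes). Its log2 difference was -0.73 ± 0.11 (limma adjusted p = 0.0327, and 0.0397 with the block). COL3A1 differed by -1.72 ± 0.66 (limma adjusted p = 0.267, and 0.018 with the block). No endothelial or leukocyte marker was called, and their largest differences were ERG (-0.30) and CD3D (0.17).

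The rest of the interferon pathway was read from lists of its ligands, receptors, regulators and further targets. Of 18 interferon genes measured, 0 were called with TGF-β1 and 17 were dim, with a median replicate difference of -0.03. The largest TGF-β1 difference among them was that of IFNE, an epithelial type I interferon, which read 4.46 and 4.64 on the TGF-β1 arrays, against 4.08 and 4.16 on the untreated arrays (0.44 ± 0.11, adjusted p = 0.103). Of the 9 receptors and kinases, IL10RB, a chain shared by the receptors of interferon lambda and interleukin 10, rose. IL10RB read 8.46 and 8.31 on the TGF-β1 arrays, against 7.58 and 7.47 on the untreated arrays, a 1.82-fold rise with a log2 difference of 0.86 ± 0.11 and an adjusted p of 0.0185. The median replicate difference of the receptors and kinases was 0.02.

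None of the 10 other transcription factors, the 12 feedback regulators and the 16 nucleic acid sensors passed the test for TGF-β1. IRF8, a factor best known from myeloid cells, had the largest difference of the first group, reading 8.13 and 8.72 on the TGF-β1 arrays, against 8.91 and 9.23 on the untreated arrays (-0.65 ± 0.21, adjusted p = 0.197). PIAS3, an inhibitor of cytokine signalling, differed by 0.26 (adjusted p = 0.261), and DHX58, a RIG-I relative, by 0.31 (adjusted p = 0.202). The sensors had a median replicate difference of 0.06, but IFI16, a sensor of DNA that interferon induces, read 6.48 on replicate 1 and 5.20 on replicate 2 of the TGF-β1 arrays, and 6.81 and 5.47 on the untreated arrays. IFI16 was named after its values were seen.

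Of 46 further interferon-stimulated genes, 3 rose and none fell with TGF-β1, against 1.87% and 1.47% of all genes. TRANK1, a large protein whose function in these cells is unsettled, rose 2.08-fold (adjusted p = 0.0185). TRIM21, an antibody receptor of the cytosol, rose 1.77-fold (adjusted p = 0.0196). GBP3, an interferon-induced GTPase, rose 1.72-fold (adjusted p = 0.0296). With the block, 4 of the 46 were called higher and 1 lower, against 1.65% and 1.18% of all genes. The called genes that this added, both named after their values were seen, were EPSTI1 and TRIM14. EPSTI1, an interferon-responsive gene, read 10.17 and 9.35 on the TGF-β1 arrays, against 8.82 and 8.06 on the untreated arrays, a 2.51-fold difference with an adjusted p of 0.102 without the block and 0.0218 with it. TRIM14, an adaptor of antiviral signalling, read 9.59 and 9.18 on the TGF-β1 arrays, against 10.27 and 10.11 on the untreated arrays, a log2 difference of -0.80 with an adjusted p of 0.055 without the block and 0.0482 with it. The median TGF-β1 difference of the 46 genes was 0.04 and their median replicate difference 0.05. Of the 46, 20 were higher on replicate 1 in both groups and 11 lower in both, against 27.2% and 30.9% of all genes. The largest replicate differences were those of GBP1 (0.96), EPSTI1 (0.79) and DDX60L (0.70), named after their values were seen.

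None of the 14 genes of class I molecules and peptide loading, 16 other proteasome subunits and activators and 11 class II genes passed the test for TGF-β1. CALR, a chaperone of peptide loading, read 12.36 and 12.18 on the TGF-β1 arrays and 11.73 and 12.19 on the untreated arrays (0.31 ± 0.17, adjusted p = 0.460). For 9 of the 14 class I genes both TGF-β1 arrays lay above both untreated arrays (21.4% of all genes), with a median difference of 0.15. The 9 include HLA-B, HLA-C, HLA-E, HLA-F and HLA-G, related genes whose probe sets can share signal. They may therefore not be separate observations. PSMB10, the remaining inducible catalytic subunit of the immunoproteasome, differed by -0.21 (adjusted p = 0.548). HLA-DMA, which loads peptides on class II molecules, differed by 0.16 (adjusted p = 0.702), and 7 of the 11 class II genes were dim. Both replicate 1 arrays lay above both replicate 2 arrays for 10 of the 16 proteasome genes, against 14% of all genes. That held for 3 of the 14 class I genes and 0 of the 11 class II genes. The median replicate differences were 0.11, -0.03 and -0.05 in that order.

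**Figure D4:**
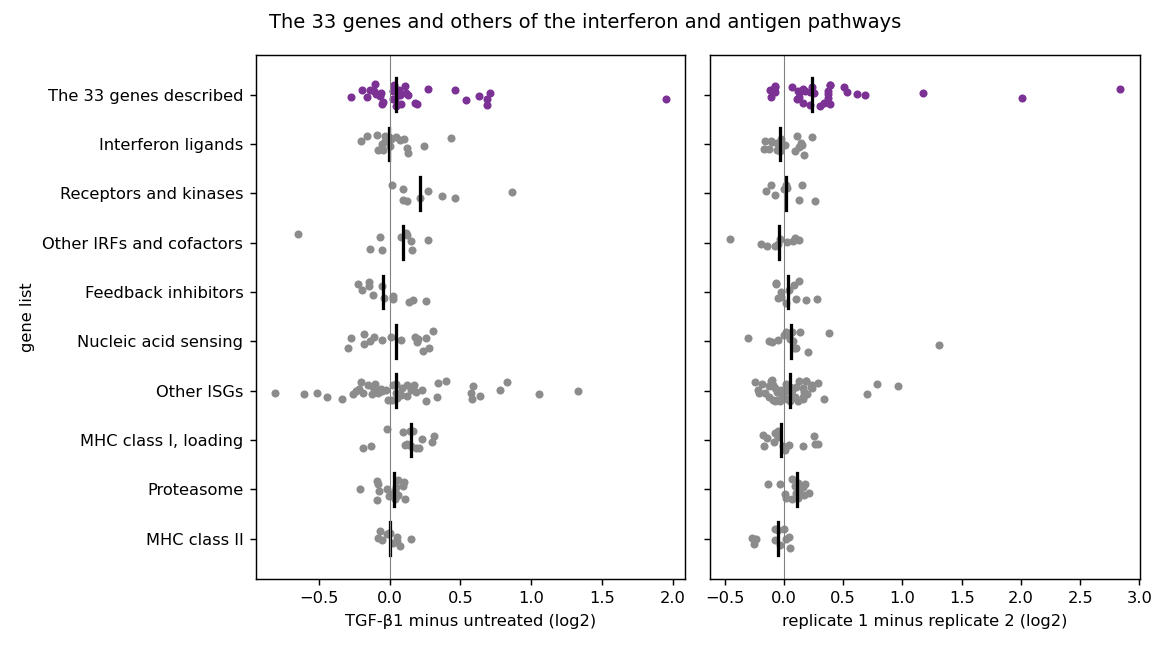
Log2 differences of the genes of each interferon and antigen presentation list, for TGF-β1 minus untreated and for replicate 1 minus replicate 2; each point is a gene and the bar is the list's median. The 33 genes have a median of 0.05 for TGF-β1 and 0.24 for the replicate number.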

How the data were processed

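Total RNA was read as biotin-labelled cRNA on 4 HG-U133 Plus 2.0 arrays, 2 of TGF-β1-treated and 2 of untreated cells. The deposited values are log2 values after RMA background correction, quantile normalization and summarization, per the series' design text and the submitters' processing notes, which name no version of the RMA software. Quantile normalization hides a shift of most genes in one direction. Of 54675 probe sets, 41097 had 1 gene symbol in the platform annotation, updated through the Entrez ID for 41043, and they gave 19775 genes by the brightest probe set.

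limma 3.58.1 in R 4.3.3 (lmFit, eBayes without trend, two-sided) was fitted to all genes and all 4 arrays. Benjamini-Hochberg adjustment ran over the 19775 genes, and a gene was called at an adjusted p under 0.05. A second fit added the replicate number, which gave the blocked TGF-β1 difference and the replicate difference. These fits had 6.13 and 4.07 degrees of freedom. The TGF-β1 difference without the block and the replicate difference were tested on simulated data with independent errors between arrays. That simulation put no shared replicate deviation under the TGF-β1 fit, and the blocked TGF-β1 difference was not simulated. No exact permutation test was used, since the 6 possible splits of these arrays allow no p under 0.333. Nothing says that the arrays came from separate cultures, so p-values measure the spread between arrays, which may be technical. The number of arrays limits the precision. Promoters are RefSeq windows of GRCh38.p14. Some genes have several windows, and every motif was counted per gene, as found if any window held it.

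The genes, the lists and the tests were chosen with earlier results of these data known. Values on every array are given for genes called in either fit, for the 8 with the largest TGF-β1 difference, for the 8 with the largest replicate difference, and for ISG15, IRF1, IRF7, IRF9, PSMB8, PSMB9, TAP1 and B2M. Of each other list, up to 4 called genes, or the 1 with the largest difference, are named. A gene named after its values were seen is marked so. Alternatives were minimum mean levels of 5 and 7, an intensity trend, centring on array medians, averaged or separate probe sets, the replicate block, leaving out each array, unadjusted p-values and a further 2-fold minimum. The alternatives for the replicate difference of single genes were added after seeing the data.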

Additional observations from a re-analysis of the deposited data

How the results depend on the processing

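With the replicate block, 3 of the 33 genes were called higher with TGF-β1 in place of 1. Without the block, 4 passed at an unadjusted p under 0.05. Deviations of arrays with the same number from their group means correlated at 0.364 across genes. With 2 arrays a group the 2 pairs mirror each other and give the same value by construction, so they are not separate observations. No label says what the arrays of one number share. The block left the count over all genes at 561, against 660 without it. The count of 1 gene did not move under the other alternatives run, while the count over all genes lay between 70 (without untreated replicate 1) and 104 with 1 array left out. There the lone array of a group is assumed to vary like the other group. The median TGF-β1 difference of the 33 genes lay between -0.083 and 0.199 with 1 array left out, and was -0.077 without untreated replicate 2. For the replicate number, 0 of the 33 genes were called by limma; 1 was with a mean level of 5 or more, 3 with 7 or more, 1 with an intensity trend, 3 with arrays centred, 2 with probe sets averaged, 16 at an unadjusted p under 0.05 and 3 with a further 2-fold minimum. Over all genes the count of 0 became 4, 16, 5, 144 and 17 under the first 5 of these settings. It became 2252 at an unadjusted p and 49 with the further 2-fold minimum. With every probe set tested separately, 0 of the 33 genes and 0 of 41091 probe sets were called. Why the counts moved was not tested, and a minimum level also lowers the number of genes tested. The median replicate difference was 0.30 with a mean level of 7 or more and 0.20 with probe sets averaged, against 0.240. Of 18 probe sets of these genes that were not used, 11 had the sign of the used one for TGF-β1 and 14 for the replicate number. With 2 arrays a group, small changes were not detectable.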

Other observations

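IFI27, IFI6 and IFI44 were 3 of 22 genes that read at least 2-fold higher on replicate 1 in both groups. IFI16 was the only other gene of the interferon lists among the 22. Those with the largest replicate differences, named after their values were seen, were CADPS, a factor of dense-core vesicle release (2.61), NIBAN1, a stress-response protein (2.37), TFF2, a trefoil peptide of mucus (2.26), ANGPT1, a ligand of the endothelial receptor TEK (2.00), and SPINK1, a secreted trypsin inhibitor (1.95). LCN2, an iron-sequestering protein of innate defence, read 12.10 on replicate 1 and 10.85 on replicate 2 of the TGF-β1 arrays, and 11.92 and 10.83 on the untreated arrays. At least 2-fold lower on replicate 1 in both groups were 6 genes, among them OLFM4, a marker of intestinal crypt cells (-2.42), and LGALS1, a carbohydrate-binding lectin (-1.37). No gene passed the adjusted test for the replicate number, and what the arrays of one number share is not given by the labels.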
